A study of Mus musculus with 4 samples.

Results

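Oxidative phosphorylation is carried out by 5 protein complexes of the inner mitochondrial membrane. Most of their subunits are encoded in the nucleus and imported, and a few are encoded in mitochondrial DNA (mtDNA). The nuclear-encoded subunits were followed here across the cell types of tumor-draining lymph nodes. Members were chosen by gene symbol: those beginning with Ndufa, Ndufb, Ndufc, Ndufs, Ndufv, Uqcr, Cox4i, Cox5, Cox6, Cox7, Cox8 or Atp5, with Sdha to Sdhd and Cyc1. Of 95 such symbols, 8 assembly factors (Ndufaf) and 1 symbol ending in -ps were left out by name, and 6 had fewer than 50 unique molecular identifiers (UMIs) over the annotated cells. These 6 were Cox4i2 with 21 UMIs, Cox7a1 with 30, Cox8b and Ndufa4l2 with 1 each, and Cox7b2 and Cox8c with 0. The remaining 80 members, of 32285 genes in the files, held 792174 UMIs, and the least abundant of them, Cox6b2, had 181. Complex I contributed 37 members, complex II 4, complex III 9, complex IV 13 and complex V 17. Ndufa4 was counted with complex I because of its symbol.

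The cells came from wildtype mice with injected tumor cells. One group ate control chow and the other, from day 3 after the injection, RGX-104 chow, which activates LXR (liver X receptors), nuclear receptors that switch on cholesterol export genes. On day 8 the nodes were digested, antigen-presenting cells (APCs) and T cells were sorted by flow cytometry, and 10x 5′ single-cell libraries were made, 1 for each chow. The strain, the tumor line, and the number of mice behind each library are not given in the sources used here. With 1 library per chow there is no replicate check: no p-value is given, the chow and the library cannot be told apart, and each interval covers counting error only.

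The 2 libraries held 31530931 (control) and 38480769 (RGX-104) UMIs in 7346 and 8671 barcodes. The authors' annotation covered 782 and 949 APCs, with medians of 8051.5 and 9043 UMIs per cell, and 2099 and 1995 T cells, with medians of 4944 and 5048. Of the barcodes, 95 occurred in both libraries, and 15 of these were annotated cells in each. The cell type names are the authors', in their spelling. A list of 5 T cell markers summed to 3168 and 2768 CPM in T cells and to 30.1 and 25.7 in APCs, and a list of 5 APC markers to 31742 and 33968 in APCs and to 169 and 274 in T cells. CPM (counts per 1000000) are the UMIs of a gene over all UMIs of the same cells, times 1000000. A UMI stands for 1 transcript molecule, so CPM was not divided by gene length. A ratio is RGX-104 over control with its 95% interval. A member was counted as higher where its CPM was at least 25% higher in RGX-104, and as lower where it was at least 20% lower. A gene was measured in a set of cells where both libraries together had at least 50 UMIs, and a cell type was compared where each library had at least 50 of its cells, which left 6 APC types and 8 T cell types.

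Complex I takes electrons from NADH and complex II from succinate. Complex III passes them to cytochrome c, and complex IV hands them to oxygen. Complexes I, III and IV pump protons, and complex V, the ATP synthase, uses the proton gradient to make ATP. In immune cells, demand for this output is known to change with activation, growth and division. Transcription of the nuclear subunits is known to depend on factors such as Nrf1, Gabpa, Yy1 and the estrogen-related receptors.

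Promoter sequences from RefSeq (GRCm38.p6, 250 bases before to 50 after the start of the gene) were matched by symbol to 65 of the 80 members. The letters GCGCATGCG, a site of Nrf1, were found on either strand in 8 of the 65 members (12.3%) and in 1.95% of 27025 genes with a promoter in the table. AAGATGGCG, a site of Yy1, was in 7 members (10.8%) and in 1.64% of all genes. CCGGAAGT, a site of ETS factors such as Gabpa, was in 5 members (7.69%) and in 4.31% of all genes. TCAAGGTCA, a site of the estrogen-related receptors, was in 2 members (3.08%) and in 0.466% of all genes, and the GC box GGGCGG in 27 members (41.5%) and in 38.2% of all genes. These are matches of letters and not measured binding. Of the 7 Yy1 matches, 5 belonged to complex I, which had 33 of the 65 promoters, and complex III had 2 Nrf1 matches among 5 promoters.

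In 4 members the Nrf1 letters occurred on both strands of the same 10 bases, upstream of the start. They are shown as 60 bases on the strand of the gene, with these 10 bases in capitals. Atp5k lies on chr5:108434415-108434474, Ndufa11 on chr17:56717677-56717736, Atp5g2 on chr15:102671055-102671114 and Cox6a1 on chr5:115349086-115349145. Ndufa11 is on the plus strand and the other three are on the minus strand.
Atp5k: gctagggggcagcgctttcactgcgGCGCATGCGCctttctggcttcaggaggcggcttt
Ndufa11: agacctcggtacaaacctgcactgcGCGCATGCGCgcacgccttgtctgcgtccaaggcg
Atp5g2: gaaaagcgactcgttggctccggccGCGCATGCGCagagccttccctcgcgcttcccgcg
Cox6a1: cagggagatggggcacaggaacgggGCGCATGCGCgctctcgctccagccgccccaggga
The 10 bases ended 40 bases before the start in Atp5k, 50 in Ndufa11, 32 in Atp5g2 and 152 in Cox6a1. Transcripts of Atp5k, a small membrane subunit of the ATP synthase, were higher in the RGX-104 library in APCs (ratio 1.171) and T cells (1.191). Those of Ndufa11, an accessory subunit of complex I, were lower in APCs (0.901) and higher in T cells (1.088). Atp5g2, which encodes the c subunit of the ATP synthase rotor, had 0.941 (0.909 to 0.974) and 1.003 (0.971 to 1.036). Cox6a1, an accessory subunit of complex IV, was lower in both (0.886 and 0.916). The part of the matched letters in these ratios was not tested.

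The summed level of the nuclear subunits varied more between cell types than between chows. In the control library Treg (regulatory T cells) had 24029 CPM summed over the members, Tfh (follicular helper T cells) 23924, mono (monocytes) 22719 and rcDC1 22299. Next came mLC with 20642, rcDC2 with 19640, mcDC2 with 19610 and mcDC1 with 19427, all dendritic cell or Langerhans cell types. The remaining T cells were lowest: CD8_03 had 18437, CD8_01 18218, Th1_03 17537, CD8_02 17534, Th1_01 16909 and Th1_02 16669. So the members made up between 1.67% and 2.40% of all UMIs of a type. Of the 13 pairs of neighbours in this order, 7 had counting intervals that overlapped, Treg with Tfh and Th1_03 with CD8_02 among them. In the RGX-104 library mono came first with 25307, then Treg with 23495 and Tfh with 22708, and Th1_02 was again last with 15811. There 5 of 13 neighbours overlapped. With ribosomal protein UMIs left out of the totals the order changed: in control Tfh was highest at 31799.7 CPM and mcDC1 lowest at 22375.

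**Figure D1:**
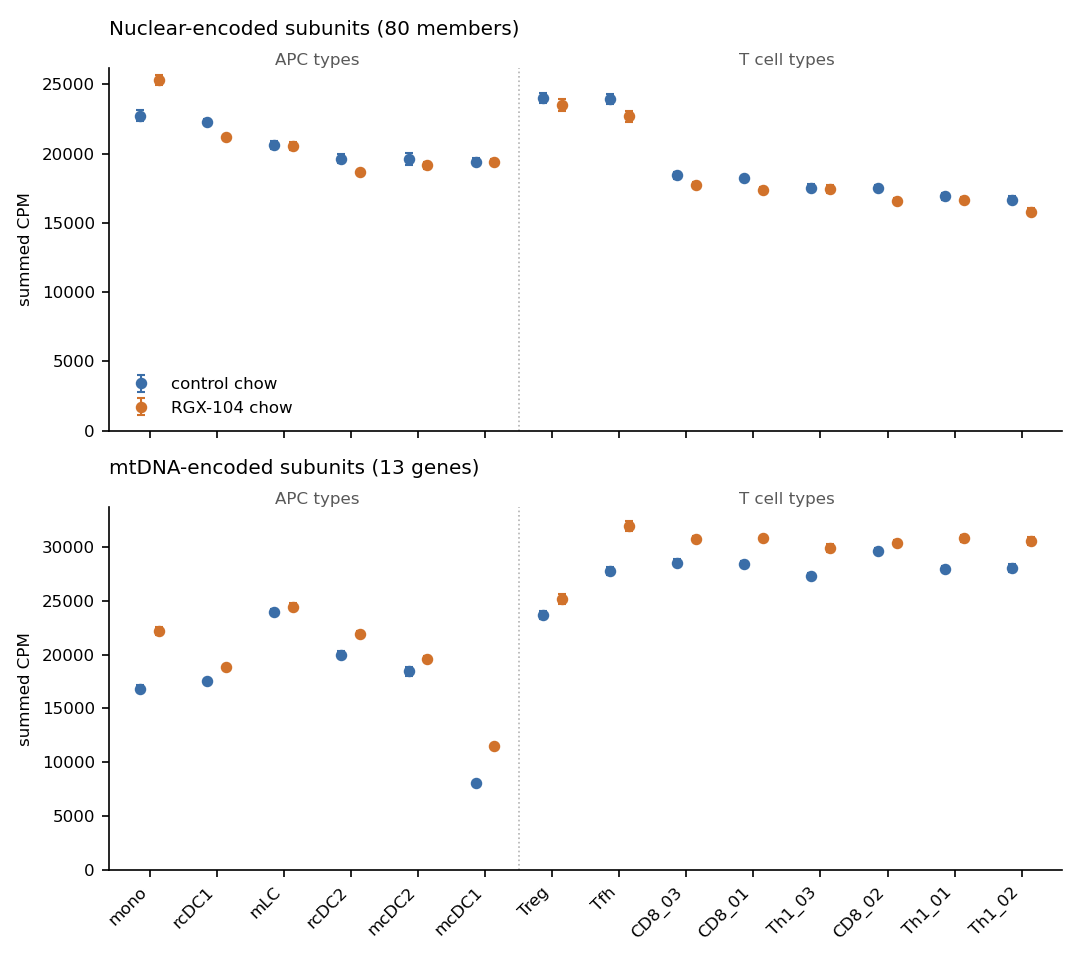
Summed CPM (y axis, from 0) of the nuclear-encoded subunits (upper panel) and the mtDNA-encoded subunits (lower panel) in the 14 compared cell types (x axis), for control chow and RGX-104 chow, 1 library each. Bars are exact 95% Poisson intervals and mostly smaller than the points. The nuclear sum was higher with RGX-104 only in mono, although with TMM factors, which set the bulk of genes equal, it was lower in 9 of the 14 types, and the mtDNA-encoded sum was higher in each of the 14 types.

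Types with too few cells to compare went beyond this range at both ends. The T cells named Bcat1+ T (30 and 58 cells) had 28883 and 27959 CPM, and those named Cytotoxic T (16 and 44 cells) had 28709 and 28227. In these 2 types, between 29.3% and 50% of the cells had both deposited cell cycle scores at or above 0. The cells named macrophages (27 and 52) had 32794 and 21849 CPM, with both scores at or above 0 in 3.70% and 0% of cells. The cells named Gm26917+ mcDC (12 and 32) had 6231 and 6336 CPM, at medians of 1972.5 and 2048 UMIs per cell, with ribosomal protein genes at 5.88% and 6.88% of their UMIs.

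Further measures moved with the level. The first was cell cycle score. T cells with both scores at or above 0 had 25005 CPM (188 cells, control) and 25859 CPM (179 cells, RGX-104), against 18033 and 17322 in those with both scores under 0. The ratios were 1.387 (1.370 to 1.403) and 1.493 (1.476 to 1.510). Within types they were smaller where most of these cells lay: CD8_02 (54 and 53 scored-high cells) had 1.064 and 1.099, Th1_02 (50 and 45) 1.0499 and 1.065, and CD8_03 (16 and 18) 1.020 and 1.027. Tfh (17 and 7) had 1.338 and 1.2699, and Treg (21 and 12) 1.271 and 1.2705. In Treg the scored-high cells had medians of 13637 and 12137 UMIs, against 3779 and 4697. Ratios above the pooled ones rested on few cells: CD8_01 (2 and 3) had 1.716 and 1.587, and Th1_03 (2 and 3) 1.659 and 1.827. Th1_01 (0 and 1) had 2.214 in RGX-104. In APCs, with 35 scored-high cells in each library, the same ratios were 1.183 (1.162 to 1.205) and 1.223 (1.204 to 1.243). The medians were 16008 and 20238 UMIs per scored-high cell against 8200 and 9075.5. Another was the share of cytosolic ribosomal protein transcripts, 34.8% and 35.8% of the UMIs of T cells and 20.5% and 20.4% of those of APCs. Across the 14 types the summed level and this share had Spearman correlations of -0.65 (control) and -0.71 (RGX-104), a description over types that share libraries and a total. With the median UMI count per cell the level had correlations of 0.50 (control) and 0.59 (RGX-104) over the same types. The part of these measures in the level was not tested.

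Complex IV had the lowest ratio of T cells over APCs among the 5 complexes, with and without ribosomal protein UMIs in the totals. Summed over all members, T cells had 0.897 (0.891 to 0.902) of the APC level in control and 0.921 (0.915 to 0.927) in RGX-104. With ribosomal protein UMIs left out of the totals, these became 1.093 and 1.141, so the direction depends on the total used. For complex IV the ratio was 0.759 (0.750 to 0.769) and 0.775 (0.766 to 0.785), and without ribosomal proteins 0.926 and 0.960, closer to 1 than any other complex. Complex I had 0.975 (0.964 to 0.987) and 1.004 (0.992 to 1.015), complex II 0.960 and 0.975, complex III 0.918 and 0.939, and complex V 0.940 and 0.973. Without ribosomal proteins these 4 complexes were higher in T cells: I at 1.189 and 1.243, II at 1.171 and 1.208, III at 1.120 and 1.163, and V at 1.146 and 1.205.

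Few members differed 1.5-fold between T cells and APCs in both libraries: 1 was higher in T cells, where 23.5% of all measured genes were, and 4 were higher in APCs, where 25.6% of all genes were. Without ribosomal proteins in the totals 6 were higher in T cells (33.98% of all genes), Ndufa5 among them, and 2 in APCs (21.4%), Cox6a2 and Cox6b2. Ndufa5, an accessory subunit of complex I, was the member higher in T cells, with 98.7 and 96.5 CPM against 62.1 and 57.1, a ratio of 1.588 (1.423 to 1.775) and 1.692 (1.527 to 1.876). Cox5a, a subunit of complex IV, had 270.7 and 265.3 CPM in T cells against 469.7 and 475.9 in APCs, a ratio of 0.576 (0.549 to 0.605) and 0.557 (0.532 to 0.584). Uqcrb, a subunit of complex III that binds ubiquinone, had 0.638 (0.601 to 0.678) and 0.651 (0.613 to 0.692). The remaining pair, Cox6a2 and Cox6b2, are paralogues described below. In T cells Cox6a2 had 2 and 1 UMIs and Cox6b2 had 8 and 18. Both reached the minimum of 50 UMIs only through APCs, so their direction is not independent of that minimum. Of the Cox6a2 UMIs in APCs, 99.2% and 86.4% lay in the plasmacytoid dendritic cells described below.

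**Figure D2:**
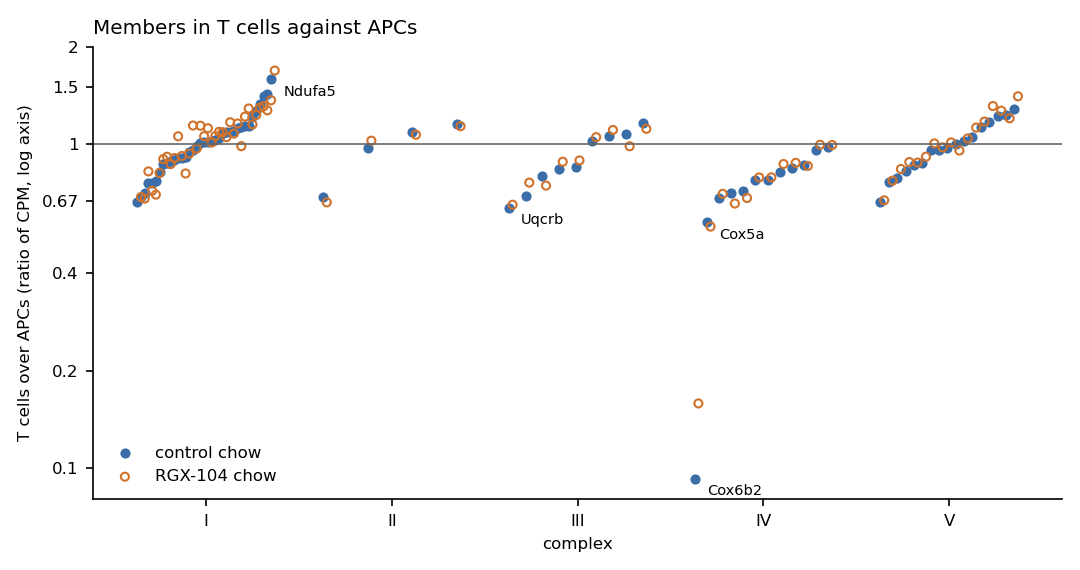
Ratio of CPM in T cells over APCs (y axis, log scale) for each member, grouped by complex (x axis) and ordered by the control value, with control chow filled and RGX-104 chow open. Named members passed 1.5-fold in both libraries, and Cox6a2, at 0.00143 in control and 0.00746 in RGX-104, is off the scale and not drawn. Most complex IV members lie below 1 in both libraries, with ribosomal protein UMIs in the totals.

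Single members varied over the 14 types to different extents. For 78 members the ratio of the highest to the lowest type, taking the smaller value of the 2 libraries, ran from 1.32 to 4.39 with a median of 2.06. Atp5h, a subunit of the stalk of the ATP synthase, had the narrowest range at 1.32. Ndufa5 had the widest, from 17.97 CPM in mcDC2 to 157 in Tfh (control) and from 26.7 in mcDC2 to 117 in Treg (RGX-104). Ndufb2, an accessory subunit of complex I, had 3.09, Ndufs1, which carries iron-sulfur clusters in the electron path of complex I, 2.90, and Ndufs8, another such subunit, 2.82. Cox7a2l, which joins complexes III and IV into supercomplexes, was highest in mLC (561 and 592 CPM) and lowest in Treg (173 and 214). Across types the summed levels of complexes I and V had a Spearman correlation of 0.88 in each library, and complexes II and IV 0.26 and 0.07, as descriptions over 14 types of shared libraries.

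With members grouped by symbol, the most abundant ones were the same in APCs and T cells for 4 of the 5 complexes. Cox4i1, a regulatory subunit of complex IV, had 1051 and 1010 CPM in APCs and 817 and 799 in T cells. Atp5e, the epsilon subunit of the ATP synthase, had 991 and 926 in APCs and 868 and 849 in T cells. Uqcrh, the hinge protein of complex III, had 727 and 697 in APCs and 774 and 773 in T cells. Sdhb, the iron-sulfur subunit of complex II, had 120.5 and 103.9 in APCs and 117.6 and 106.7 in T cells, where Sdha, at 95.3 and 106.7, tied with it in RGX-104. In complex I the top member was Ndufa6 in APCs (366 and 369) and Ndufa4 in T cells (408 and 374). The place of Ndufa4 in complex I rests on its symbol alone. Next in T cells was Ndufa6, with 325 and 335, so without Ndufa4 the top member would be the same in both classes.

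Some subunit paralogues divided the cell types more sharply than the sums did, and others hardly varied. The Atp5g shares varied among the compared types, and Cox6a2 stood out in a type with too few cells to compare. Over the compared types Cox4i1 supplied between 99.9% and 100% of the UMIs of its family, and Cox6b1 between 93.1% and 100%. Cox6a2 encodes the heart and muscle form of a complex IV subunit whose common form is Cox6a1. In the cells named pDC (plasmacytoid dendritic cells), Cox6a2 had 882 UMIs in 53 control cells and 102 UMIs in 9 RGX-104 cells, which is 1800 CPM (1684 to 1923) and 1392 CPM (1135 to 1690). It supplied 83.1% (80.7 to 85.3) and 79.7% (71.7 to 86.3) of the UMIs of the Cox6a pair there. Of these cells, 50 of 53 and 7 of 9 had a UMI, with a median of 16 and 8 and a highest value of 47 and 26 UMIs per cell. In all other APCs, Cox6a2 had 7 UMIs in 729 control cells and 16 UMIs in 940 RGX-104 cells, and in T cells it had 2 and 1. In the 14 compared types it supplied less than 2% of the pair. Cox6a1 in pDC, at 365 and 355 CPM, was within the range of the compared types, 272 to 444 in control and 236 to 431 in RGX-104. The pDC ratio of Cox6a2 was 0.773 (0.624 to 0.9501), from 9 cells on 1 side. Cox6a2 lies on chr7:128205435-128206366 (GRCm38.p6).

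Cox6b2, known as the testis form of another complex IV subunit, was a minor product everywhere. It was highest in rcDC2, with 24 UMIs (31.8 CPM, 20.4 to 47.3) in control and 43 UMIs (26.2 CPM, 19.0 to 35.3) in RGX-104, or 6.92% and 6.13% of the Cox6b pair. In pDC it was at 0 UMIs beside 180 and 30 UMIs of Cox6b1. The 3 genes for the c subunit of the ATP synthase, Atp5g1, Atp5g2 and Atp5g3, encode the same mature protein and differ in their import sequence. Atp5g2 supplied 71.7% (69.2 to 74.1) and 70.7% (68.2 to 73.2) of their UMIs in mLC and 40.4% (37.6 to 43.2) and 38.4% (35.4 to 41.5) in Treg. Atp5g3 went the other way, with 18.3% and 21.2% in mLC and 42.2% and 44.1% in Treg. Atp5g1 supplied between 8.11% and 20.0% in every compared type.

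**Figure D3:**
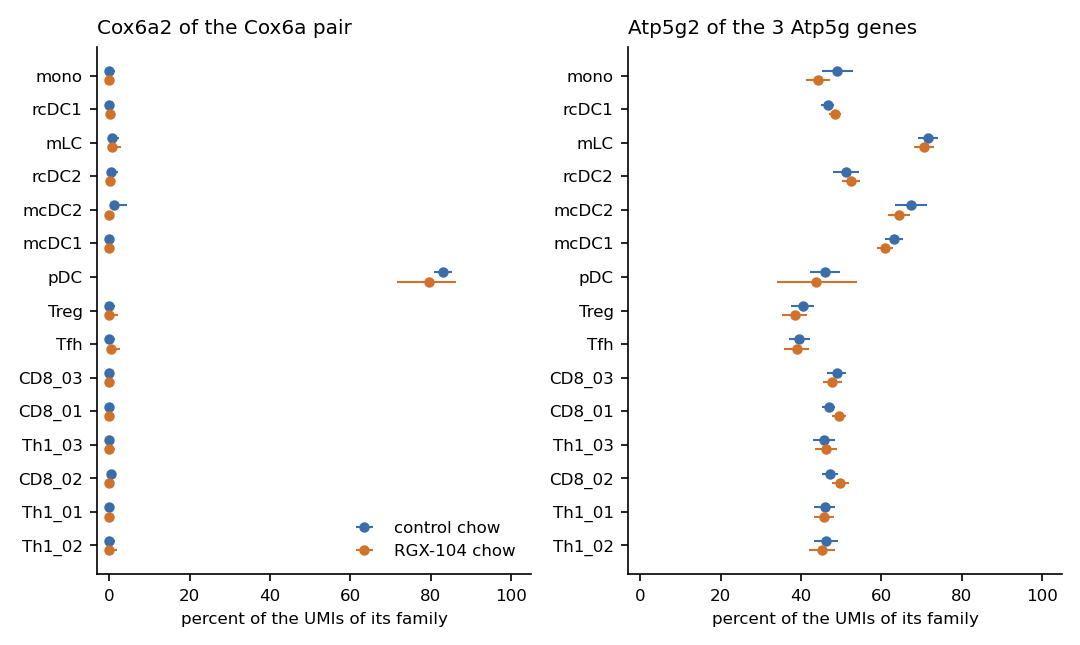
Percent of a family's UMIs (x axis) that came from Cox6a2 (of Cox6a1 and Cox6a2, left) and from Atp5g2 (of Atp5g1, Atp5g2 and Atp5g3, right) in the 14 compared types and in pDC (y axis), with exact binomial 95% intervals, for control and RGX-104 chow. Cox6a2 stands at 83.1% and 79.7% in pDC and at less than 2% elsewhere, and Atp5g2 is highest in mLC.

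Against this background, the RGX-104 library differed little from control in pooled cells. In APCs the members summed to 21400.4 CPM in control and 20408 in RGX-104, a ratio of 0.954 (0.947 to 0.960). In T cells the sums were 19186 and 18795, a ratio of 0.980 (0.974 to 0.985). The size depended on the scaling: with TMM factors, which set the bulk of genes equal, the ratio was 0.996 in APCs and 0.980 in T cells, and with ribosomal protein, mitochondrial, immunoglobulin and receptor genes left out of the totals it was 0.954 and 0.998. The member median log2 ratio was -0.08 in APCs, where the median of all measured genes was -0.06, and -0.05 in T cells, where it was -0.01.

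Almost no member was counted as higher or lower in the pooled cells. In APCs 1 of 80 measured members was higher, Cox6b2, against 10.4% of 10346 measured genes, and 2 were lower, Cox6a2 and Ndufa9, against 14.8%. Cox6b2 stood at 1.335 (0.951 to 1.890) from 55 and 100 UMIs, an interval that held 1. In rcDC2, where it was highest, it had 31.8 and 26.2 CPM, and that type had 87 and 167 cells. In T cells 0 of 78 were higher, against 8.94% of 10214 genes, and 1 was lower, against 7.02%. Ndufb1-ps, left out by name, may encode a functional complex I subunit, which was not settled here, and at 1.306 in T cells it would be counted as higher. Members are more abundant than most genes, with medians of 3406 and 4142 UMIs against 383 and 498, and low counts scatter more. Among genes with at least 200 UMIs, 7.62% were higher and 9.98% lower in APCs, and 4.62% and 4.13% in T cells, beside 0 and 2 of 79 members and 0 and 1 of 78.

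By complex, the APC ratio was 0.941 (0.929 to 0.953) for complex I, 0.970 (0.919 to 1.023) for II, 0.948 (0.929 to 0.968) for III, 0.968 (0.957 to 0.981) for IV and 0.952 (0.941 to 0.963) for V. With TMM factors complexes II and IV stood at 1.013 and 1.012, so their direction turned with the scaling. In T cells the ratios were 0.968 (0.958 to 0.979), 0.985 (0.939 to 1.032), 0.969 (0.951 to 0.987), 0.989 (0.977 to 1.001) and 0.986 (0.976 to 0.996) in the same order, and with ribosomal protein, mitochondrial, immunoglobulin and receptor genes left out of the totals those of II, IV and V were 1.003, 1.008 and 1.004.

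**Figure D4:**
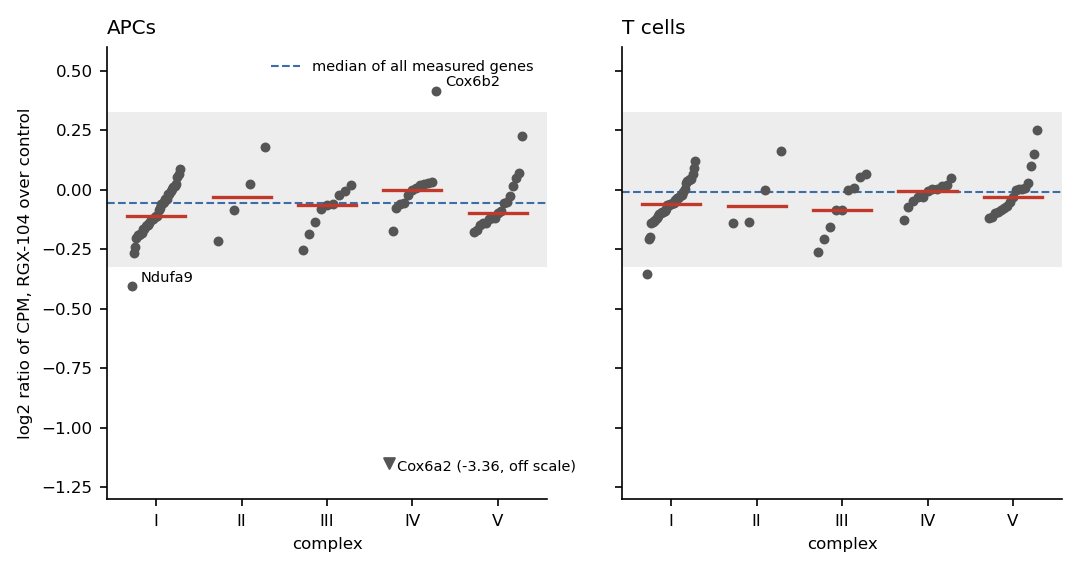
Log2 ratio of CPM, RGX-104 over control (y axis), of each measured member by complex (x axis) in pooled APCs and T cells, 1 library per chow. Red lines are medians of a complex, the dashed line is the median of all measured genes, and the grey band spans the range from 20% lower to 25% higher. Cox6b2, Ndufa9 and Cox6a2 lie outside the band in APCs, where members outside it are named, and Cox6a2, at -3.36, is drawn as a triangle at the lower edge.

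The lower level of Cox6a2 in pooled APCs followed the pDC. Pooled APCs held 889 Cox6a2 UMIs in control (122 CPM) and 118 in RGX-104 (11.9 CPM), a ratio of 0.0975 (0.0797 to 0.118). The pDC, 53 of 782 and 9 of 949 annotated APCs, carried 99.2% of these UMIs in control and 86.4% in RGX-104. Without pDC the ratio was 1.58, from 7 and 16 UMIs, and with each type weighted alike in the 2 libraries it was 0.786.

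Small differences had the same direction in APCs and T cells for a set of members. Of 78 members measured in both classes, the interval lay above 1 in both for 3, Atp5k, Sdha and Atp5md, where it did for 2.93% of all genes. It lay below 1 in both for 14, where it did for 5.20% of all genes. Among the 14 were Cyc1, Ndufa9, Uqcrb, Sdhb and Cox6a1. The intervals of the members are narrower than those of most genes because their counts are higher. The counts of intervals rest on plain CPM and were not repeated with TMM factors, which moved the summed APC ratio from 0.954 to 0.996. Atp5k had 104.4 and 122.2 CPM in APCs, a ratio of 1.171 (1.069 to 1.284), and 100.5 and 119.7 in T cells, 1.191 (1.1003 to 1.290). Its ratio was above 1 in 12 of 14 types, highest in mono (1.583), mLC (1.455) and Th1_01 (1.439), and below 1 in rcDC2 and CD8_03. Sdha, the flavoprotein of complex II that oxidizes succinate, had 82.6 and 93.7 CPM in APCs, 1.134 (1.023 to 1.258), and 95.3 and 106.7 in T cells, 1.119 (1.030 to 1.216), and was above 1 in 11 of 14 types. In APCs thinned to 2000 UMIs per cell the Sdha ratio was 0.973. Sdhb, its partner in the same complex, went the other way, at 0.862 (0.787 to 0.944) and 0.907 (0.839 to 0.981), and was above 1 in 1 of 14 types. The sum of complex II therefore hides opposite differences.

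Cyc1, the cytochrome c1 of complex III, had 101 and 84.8 CPM in APCs, 0.840 (0.760 to 0.928), and 103.1 and 89.3 in T cells, 0.866 (0.795 to 0.943). It was below 1 in 13 of 14 types, the exception being mono at 1.16. Uqcrc1, a core protein of complex III, had 0.910 (0.827 to 1.003) in APCs and 0.834 (0.768 to 0.905) in T cells. Ndufa9, an accessory complex I subunit, had 43.8 and 33.0 CPM in APCs, 0.755 (0.645 to 0.883). Other core subunits lay closer to 1: Cox4i1 at 0.961 and 0.978, Atp5b at 0.983 and 0.935, Uqcrfs1, the Rieske protein, at 1.013 and 0.944, and Ndufv1, which binds NADH, at 1.063 and 0.932.

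Among the 14 compared types, 13 had a summed ratio below 1, from 0.947 in CD8_02 to 0.9996 in mcDC1, and the interval lay below 1 in 7 of these. With TMM factors 9 of the 14 were below 1. Tfh and rcDC1 had the lowest member medians relative to all genes. In Tfh, with 126 and 84 cells, the ratio was 0.949 (0.928 to 0.971), and of its 77 measured members 2 were higher (14.6% of all genes) and 9 lower (17.9%). Ndufa5 was its lowest, with 157 and 89.6 CPM, 0.572 (0.402 to 0.804), and Atp5md, a small subunit of the ATP synthase, its highest at 1.321 (1.126 to 1.550). In Tfh 13.5% of control cells and 8.33% of RGX-104 cells had both cell cycle scores at or above 0, and the part of this in the ratio was not tested. In rcDC1 the ratio was 0.9502 (0.939 to 0.962), with 1 of 78 members higher (12.6% of all genes) and 6 lower (14.5%). Ndufs5, an accessory complex I subunit, was lowest there at 0.723 (0.613 to 0.853), and Atp5k was the member that was higher. In mcDC1 the sums were level at 19427 and 19420, with 0 of 78 members higher (14.4% of all genes) and 3 lower (17.8%), namely Sdhb at 0.649 (0.516 to 0.815), Cyc1 at 0.711 (0.561 to 0.899) and Ndufa9 at 0.714 (0.480 to 1.064).

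The cells named mono were the exception. Their members summed to 22719 CPM in 75 control cells and 25307 in 78 RGX-104 cells, a ratio of 1.114 (1.088 to 1.140), and 1.1496 with TMM factors. Per cell, the members took a median of 2.24% of UMIs in control (quartiles 1.91 and 2.504) and 2.47% in RGX-104 (2.17 and 2.81). Among the 77 members measured in mono, 26 were higher, against 18.1% of 3295 measured genes, and 1 was lower, against 25.2%. The interval lay above 1 for 19 members (9.65% of all genes) and below 1 for 2 (12.2%). Counting at 50 UMIs leaves wide intervals in so few cells, and with a minimum of 200 UMIs 14 of 51 members were higher, against 14.5% of 856 genes, and 1 was lower, against 17.6%.

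In mono complex IV differed most, at 6009 and 7259 CPM, a ratio of 1.208 (1.156 to 1.263). Cox5b, a zinc-binding subunit, had 389 and 607 CPM, 1.559 (1.318 to 1.849). Cox8a had 942 and 1341, 1.423 (1.275 to 1.588), and Cox7b had 239 and 351, 1.468 (1.181 to 1.832). Cox5a was at 1.364 (1.167 to 1.595), whereas Cox4i1 was at 1.070 (0.964 to 1.188) and Cox7a2l at 0.811 (0.662 to 0.993). Complex I had 1.067 (1.021 to 1.115), II 1.127 (0.937 to 1.359), III 1.075 (1.001 to 1.155) and V 1.091 (1.047 to 1.137). Ranked by the bound nearest 1, Cox5b was the highest member. Ndufab1, the acyl carrier protein of mitochondria, had 88.2 and 145 CPM from 48 and 99 UMIs. Its ratio was the highest single value, 1.647 (1.155 to 2.376). In pooled APCs it was 0.881 (0.801 to 0.970). Ndufa2, an accessory complex I subunit, was the member that was lower, with 331 and 261 CPM, 0.790 (0.638 to 0.977).

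Several other measures moved in mono. The 13 mtDNA-encoded subunits had 16846 and 22200 CPM, a ratio of 1.318 (1.284 to 1.353), and 22 glycolysis genes had 2546 and 3343 CPM, 1.313 (1.228 to 1.405). A list of 5 macrophage markers summed to 145 and 311 CPM, with Mertk at 0 in RGX-104, and 5 monocyte markers to 15871 and 19048. A list of 5 cycling markers summed to 160 and 23.5 CPM. The median UMI count was 6866 and 8315 per cell, and ribosomal proteins took 19.0% and 19.7% of UMIs. The part of these in the result was not tested. The ratio ran from 1.1005 to 1.155 under each scaling, weighting, cell cycle, lineage and depth alternative run for these cells.

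**Figure D5:**
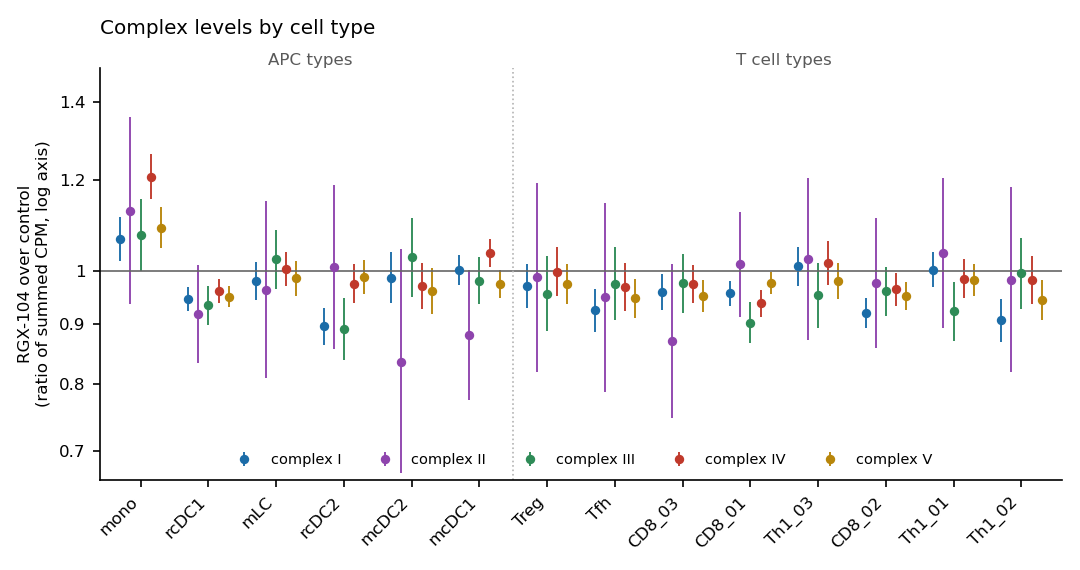
Ratio of summed CPM, RGX-104 over control (y axis, log scale), of each complex in the 14 compared types (x axis), with 95% counting intervals. All 5 complexes lie above 1 in mono, where complex IV is highest at 1.208, and most points lie below 1 elsewhere.

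The cells named macrophages, at 27 and 52, were too few to compare. Their members had 32794 CPM in control and 21849 in RGX-104, a ratio of 0.666 (0.645 to 0.688). Ribosomal protein transcripts stood at 25.97% and 10.9% of their UMIs and the median UMI count at 4415 and 11398, and the part of these in the ratio was not tested. Complexes I, III, IV and V had 0.690, 0.589, 0.648 and 0.666, while complex II had 1.233 (0.954 to 1.613).

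In pooled APCs and T cells the sum of the mtDNA-encoded subunits was higher in the RGX-104 library and that of the nuclear ones lower, and in mono both were higher. The mtDNA-encoded sum was 17907 CPM in control and 19165 in RGX-104 in APCs, a ratio of 1.070 (1.063 to 1.078), and 27747 and 29688 in T cells, 1.070 (1.065 to 1.075). The ratio was above 1 in each of the 14 types, from 1.020 in mLC to 1.415 in mcDC1, with every interval above 1. Of all measured genes 10.4% were higher and 14.8% lower in pooled APCs, and 8.94% and 7.02% in pooled T cells. Beside these, 1 of the 13 mtDNA-encoded genes was higher and 0 lower in each class. It was mt-Atp8, a subunit of the ATP synthase, at 1.498 (1.406 to 1.598) and 1.48. In APCs mt-Nd2, at 0.951 (0.915 to 0.988), and mt-Nd4, at 0.951 (0.913 to 0.990), subunits of complex I, had intervals below 1, and in T cells they had 0.990 and 1.052. The mcDC1 cells had the fewest mtDNA transcripts of the compared types, 8115 CPM in control and 11482 in RGX-104, or 0.418 and 0.591 per nuclear subunit transcript, against 1.161 and 1.190 in mLC. The annotated cells all had under 5% mitochondrial UMIs, a bound that limits such sums. Across the 14 types the 2 sums had Spearman correlations of -0.58 (control) and -0.41 (RGX-104), over types that share libraries and a total.

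Other mitochondrial gene lists are given for comparison, counted by the same rule. Of all measured genes, 10.4% were higher and 14.8% lower in APCs, and 8.94% and 7.02% in T cells. Assembly factors, which build the complexes, were lower in APCs at 0.888 (0.867 to 0.911), with 1 of 43 measured genes higher and 12 lower, and stood at 0.961 (0.941 to 0.982) in T cells, with 2 of 44 higher and 4 lower. Mitochondrial ribosomal proteins had 0.906 (0.893 to 0.920) in APCs, with 1 of 78 higher and 11 lower, and 0.945 (0.933 to 0.956) in T cells, with 1 higher and 5 lower. Their median log2 ratios, -0.19 and -0.15 in APCs and -0.06 and -0.11 in T cells, stood further below 0 than those of all genes. TCA cycle enzymes, which supply NADH and succinate, had 0.966 and 0.954, with 0 of 16 counted as higher or lower in either class. Glycolysis genes had 1.147 (1.123 to 1.172) in APCs, with 7 of 20 higher and 0 lower, and 1.042 (1.024 to 1.060) in T cells, with 2 of 21 higher and 1 lower. Cytosolic ribosomal proteins had 0.996 and 1.027.

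Of the regulators of the module, 1 of 13 was higher in APCs, the coactivator Ppargc1b with 3.42 and 6.23 CPM, 1.82 (1.13 to 3.02), and 1 lower, Nrf1 with 16.4 and 12.96 CPM, 0.79 (0.61 to 1.02). In T cells 0 of 13 were higher or lower, and Nrf1 stood at 1.05 (0.90 to 1.22). Yy1 had 0.9304 (0.854 to 1.014) and 0.95 (0.89 to 1.02), and Gabpa 0.95 in each class. Among 19 carriers and partners 2 were higher and 1 lower in APCs, and 0 higher and 1 lower in T cells. Beside both lists, 10.4% of all measured genes were higher and 14.8% lower in APCs, and 8.94% and 7.02% in T cells. Slc25a4, which exchanges ADP for ATP, had 92.6 and 119 CPM in APCs, 1.29 (1.17 to 1.42), and Hccs, which attaches heme to cytochromes c and c1, had 20.8 and 13.6 CPM, 0.65 (0.51 to 0.83). Mcub, a subunit of the calcium uniporter, was the other that was higher in APCs, at 1.28 (1.06 to 1.54). It was also the 1 that was lower in T cells, at 0.75 (0.49 to 1.13), where the interval held 1.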

How the data were processed

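The authors deposited gene by barcode matrices of UMI counts. The file headers name Cell Ranger 5.0.0 and the genome was mm10 per the submitters' processing notes, which also name Seurat 5.0.3. The authors' deposited annotation tables give the cell type, the mitochondrial percent, cell cycle scores and a doublet class, singlet for every cell. They name no barcode, so each cell was joined by its UMI and gene counts, over genes in at least 3 barcodes, and by its mitochondrial percent; all 5825 cells matched exactly 1 barcode. UMIs were summed per type and library with Python 3.11.15, numpy 2.4.6, scipy 1.17.1 and pandas 2.3.3. Ratios carry exact conditional binomial intervals, levels exact Poisson intervals and shares Clopper-Pearson intervals, all at 95%, checked on simulated data. TMM factors came from edgeR 4.0.16 in R 4.3.3. No replicate exists, so no count model was fitted.

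Named members were, by rule, the 8 highest and 8 lowest ratios in APCs and T cells, ranked by the bound nearest 1; core subunits; paralogues; the 8 widest ranges over types; the most and least abundant of each complex; and the extremes of each type. Atp5h, Ndufab1 and Cox7b were named outside this rule. Members and gene lists were chosen with earlier results of these data known. The T cell receptor libraries were not used here. The values of 1 member are not reported here on their own.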

Additional observations from a re-analysis of the deposited data

Results flagged for a closer look

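The summed ratio of 1.114 in mono stood opposite in direction to 7 other types whose intervals lay below 1, and the difference between types was not tested. Among genes left out by name, Ndufb1-ps, which may encode a functional complex I subunit, had 7583 UMIs over the annotated cells. Its levels were 210.1 CPM in control and 244 in RGX-104 in APCs, a ratio of 1.163 (1.091 to 1.241), and 138 and 180 in T cells, 1.306 (1.222 to 1.396). In T cells that is above each of the 78 members measured there.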

How the results depend on the processing

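The alternatives were planned except those for mono, macrophages, complexes and single members, the set without mono and the ratios of T cells over APCs, which were chosen after seeing the data. In APCs the summed ratio of 0.954 was 0.939 with cells thinned to 2000 UMIs, 0.935 as a mean over cells, 0.996 with TMM and 0.991 with median-of-ratios factors, 0.969 with types at the same weights, 0.961 without pDC and 0.941 without mono. In T cells 0.980 became 0.964 when thinned, 0.961 in cells with both cycle scores under 0, 0.9645 as a mean over cells, 0.998 without ribosomal, mitochondrial, receptor and immunoglobulin genes in the totals, 0.9638 at the same type weights and 0.9635 without cells carrying transcripts of another lineage. Its direction held in each. In mono 1.114 became 1.1496 with TMM and 1.155 with median-of-ratios factors, and in macrophages 0.666 became 0.692 as a mean over cells, 0.542 with median-of-ratios factors and 0.553 without those genes. The member medians stayed below 0, from -0.10 to -0.01 in APCs and from -0.09 to -0.02 in T cells. The count of higher members in APCs, 1, was 0 at 1.5-fold, when thinned, as a mean over cells, with at least 200 UMIs and at the same type weights, and that of lower members, 2, was 1 at 1.5-fold and without pDC and 5 when thinned. In T cells the 0 higher became 1 with at least 10 UMIs, and the 1 lower became 0 at 1.5-fold and 4 when thinned. In mono 26 became 5 at 1.5-fold and 14 with at least 200 UMIs, where fewer members are counted. Of 399 further values of complexes and single members under the alternatives, 377 kept their direction, 17 crossed 1 from a ratio whose interval held 1, and 5 reversed a ratio whose interval did not: Cox6a2 in APCs without pDC (1.577), Sdha in APCs when thinned (0.973), complex IV in APCs with TMM (1.012) and median-of-ratios factors (1.007) and complex V in T cells without those genes (1.004). Without ribosomal protein genes in the totals the ratio of T cells over APCs turned from 0.897 and 0.921 to 1.093 and 1.141 in control and RGX-104, with 1.189 for complex I in control, 1.120 and 1.163 for III and 1.146 and 1.205 for V, and the members 1.5-fold higher in T cells and in APCs became 6 and 2 in place of 1 and 4. Apart from counts at fewer members or fewer cells, the cause was not tested. No paired analysis was possible because each chow has 1 library.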
